A study of Sus scrofa with 37 samples.

Results

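Skeletal muscle of Bama minipigs taken 24 h after contusion, a blunt mechanical injury, was compared with muscle taken 4 h after it. The comparison covers 4 libraries labelled P24h and 4 labelled P4h, chosen by their titles, out of 37 libraries in the series (9 controls and 7 times of 4 libraries each). All 9411 genes that passed a filter on low counts, of 9418 in the deposited table, were tested. The animals were Bama minipigs, the labels name no genotype, sex or age, and the treatment entry reads mechanical damage for every library, controls included. The series used 8 minipigs, with 4 biological replicates at each time. The labels do not tie libraries to pigs, so p-values measure only the spread between libraries. Values are raw read counts per gene, printed as CPM, which sets them against the library total scaled by the trimmed mean of M values (TMM), and the 4 values of a group are in the order of replicates 1 to 4.

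In contused muscle, resident cells and leaking fibres release signals within hours that draw in neutrophils and then monocytes, which become macrophages and clear debris through their lysosomes. Surviving fibres meanwhile turn over damaged protein, chiefly by tagging it with ubiquitin for the proteasome or by autophagy, and cells that will rebuild the tissue copy their DNA before dividing. The early hours and the end of the first day therefore cover different stages of the same repair sequence, and the comparison asks which transcripts differ between them.

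The 8 libraries differ in ways that the times do not define. Column totals were 10.87, 11.06, 21.54 and 11.36 M at 4 h and 11.09, 22.17, 9.91 and 22.88 M at 24 h, so 1 library at 4 h and 2 at 24 h stand apart by depth. NDUFAF8, a complex I assembly factor gene, was below 4 CPM in replicates 1, 2 and 4 of 4 h and in replicate 3 of 24 h, and these libraries belong to a set of 8 in the series. Sorting all 37 libraries by total, C1QBP, NDUFAF8 and ND6 gives 5 library sets, whose use as a term in the fit is printed below. The 10 most abundant genes took 25.7 to 32.5% of counts at 4 h and 14.9 to 20.0% at 24 h, and TMM factors were 0.794 to 0.887 at 4 h and 1.21 to 1.41 at 24 h. Directions below are relative to the TMM scale: scaling by column totals moved the median log2 change of all genes from 0.01 to 0.64.

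The tissue label held in all 8 libraries for the muscle genes in the table. CKM, the muscle creatine kinase, lay from 29359.5 to 39286 CPM at 4 h and from 5516 to 13760.1 CPM at 24 h. DES, which encodes the intermediate filament desmin, lay from 3952 to 5941 CPM at 4 h and from 3413 to 5543 CPM at 24 h. NEB, which encodes the giant thin-filament protein nebulin, and MYH7, the slow myosin heavy chain, were also abundant at both times, with NEB lying from 11258 to 16916 CPM at 4 h and from 3666 to 4946 CPM at 24 h. None of these genes was at 0 in any library. ACTA1, MB, MYH1, MYH2 and TTN were looked for but were not among the 9411 genes tested under these symbols.

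By edgeR's quasi-likelihood test with Benjamini-Hochberg adjustment over all genes, 1881 genes (20.0% of those tested) were higher at 24 h and 1856 (19.7%) were lower at an adjusted p under 0.05. Of these, 891 were at least 2-fold higher and 930 at least 2-fold lower. The 4 values of 24 h lay wholly above or below those of 4 h for 1415 of the higher and 1452 of the lower genes. Over all 9411 genes, called or not, these numbers were 1613 and 1692. The shares of 20.0% and 19.7% are the background for the list counts below that come from this fit. List counts under another setting have the totals of that setting as their background. With the library sets as a term, 1624 genes (17.3%) were higher and 1579 (16.8%) lower, and 2961 of the 3203 were also called without that term, each in the same direction. Scaling by column totals called 4836 genes higher and 550 lower, so the near balance of the directions rests on TMM. Without the 3 libraries of large total 1123 were higher and 993 lower. Leaving out the 8 libraries low in NDUFAF8 keeps only replicate 3 at 4 h and replicates 1, 2 and 4 at 24 h. For that fit medians of the log2 change are printed below in place of counts, and the median of all genes was 0.01. Such a median gives the size of a list's change and does not show how many of its genes stayed called.

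**Figure D1:**
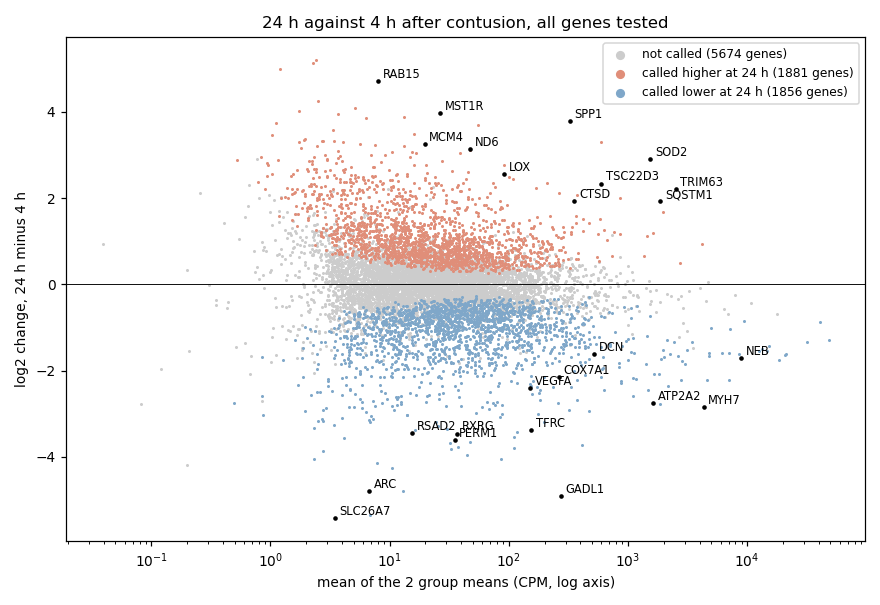
Log2 change of each of 9411 genes, 24 h minus 4 h (vertical axis), against the mean of the group means in CPM (log axis), with genes called higher in red, called lower in blue and not called in grey. Abundant genes of contraction and metabolism such as NEB and MYH7 lie below 0, SOD2, TRIM63 and SQSTM1 lie above it, and 1881 genes are called higher and 1856 lower.

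The 12 largest rises among non-overlapping genes with a mean of at least 5 CPM in the higher group included several genes that were near the detection limit at 4 h. RAB15, which encodes a small GTPase of endosomes (chromosome 7, 89015041 to 89039482 in Sscrofa11.1), had 0.229, 1.43, 0.292 and 0.439 CPM at 4 h and 13.0, 11.6, 17.1 and 20.3 CPM at 24 h. All 24 h values lay above all 4 h values (log2 change 4.71 ± 0.53 (SE), adjusted p = 3.17e-07), and the 9 controls held 0.123 to 1.18 CPM. MST1R, the receptor tyrosine kinase for macrophage-stimulating protein, had 3.66, 4.79, 1.64 and 2.85 CPM at 4 h and 45.5, 44.3, 44.9 and 64.6 CPM at 24 h. It was thus at most 4.79 CPM in every 4 h and control library and at least 44.3 CPM in every 24 h library (log2 change 3.96 ± 0.44 (SE), adjusted p = 3.17e-07). SPP1, which encodes the secreted phosphoprotein osteopontin made by macrophages in injured tissue, had 7.09, 139, 22.4 and 9.22 CPM at 4 h and 510.2, 185, 1559.9 and 186 CPM at 24 h. Both times held 1 library far above its neighbours (log2 change 3.78 ± 1.03 (SE), adjusted p = 0.00457). Lack of overlap was a condition for all 12 rises, and for the 12 falls below, so it adds no support for them.

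Of the same 12 rises, MCM2, a subunit of the helicase that opens DNA for copying, had 2.17, 5.71, 1.46 and 1.21 CPM at 4 h and 32.8, 18.4, 43.7 and 23.4 CPM at 24 h (log2 change 3.50 ± 0.58 (SE), adjusted p = 4.75e-05). POLE, the catalytic subunit of a replicative DNA polymerase, rose by 3.95 on the log2 scale, and TREM2, a lipid-sensing receptor of macrophages, rose by 3.59. At 4 h both genes were at 1.26 CPM or less, beside a floor of 3 counts that is 0.175 to 0.343 CPM in those libraries, so these fold changes have little precision. ZFAND2A, which encodes a zinc-finger protein that binds the proteasome in arsenite-stressed cells, had 13.1, 12.9, 4.27 and 1.87 CPM at 4 h and 103, 112, 80.6 and 117 CPM at 24 h. This was a rise in every 24 h library over every 4 h library (log2 change 3.69 ± 0.67 (SE), adjusted p = 0.000124). PCK1, the cytosolic phosphoenolpyruvate carboxykinase, had 2.17, 0.815, 0.117 and 0.329 CPM at 4 h and 21.1, 9.72, 5.36 and 11.2 CPM at 24 h (log2 change 3.86 ± 0.76 (SE), adjusted p = 0.000281). The remaining rises were TTC12, a factor in assembly of the motors of motile cilia (log2 change 4.08), LY6G6C (3.88), AQP9, a channel for water and glycerol (3.33), and TCF19 (3.31).

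The 12 largest falls chosen in the same way covered genes from a few CPM to 690.3 CPM at 4 h. GADL1, an amino acid decarboxylase that can form beta-alanine (chromosome 13, 16892162 to 17049314), had 416, 481, 524 and 690.3 CPM at 4 h and 27.4, 11.4, 13.2 and 18.0 CPM at 24 h. Every 24 h library was far below every 4 h library (log2 change -4.92 ± 0.80 (SE), adjusted p = 3.48e-05), and the controls ran over a wide range, 32.0 to 914 CPM. SLC26A7, an anion transporter, had 6.40, 8.87, 4.21 and 7.57 CPM at 4 h and 0.289, 0.147, 0.0715 and 0.108 CPM at 24 h. At 24 h this left it at or near the floor of 3 counts (log2 change -5.42 ± 1.14 (SE), adjusted p = 0.000491). TECRL, an endoplasmic reticulum reductase-like gene linked to inherited arrhythmia, had 13.4, 13.1, 38.8 and 34.4 CPM at 4 h and 1.88, 1.36, 0.214 and 0.216 CPM at 24 h. EXTL1, a glycosyltransferase of heparan sulphate synthesis, was high in 1 library at 4 h, with 34.6, 7.54, 4.03 and 7.02 CPM at 4 h and 0.579, 0.183, 0.500 and 0.144 CPM at 24 h. Both genes fell without overlap, with a log2 change of -4.79 ± 1.12 (SE, adjusted p = 0.00131) for TECRL and -5.36 ± 0.91 (SE, adjusted p = 5.81e-05) for EXTL1.

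Further large falls were those of CA14, a membrane carbonic anhydrase, with 186, 142, 127 and 191 CPM at 4 h and 21.5, 7.19, 3.65 and 6.84 CPM at 24 h, and of ASB12, a substrate receptor of a ubiquitin ligase, with 91.3, 73.9, 73.3 and 99.2 CPM at 4 h and 8.68, 4.99, 3.15 and 4.83 CPM at 24 h. In both genes every 24 h library was far below every 4 h library, and the log2 changes were -4.05 ± 0.70 (SE, adjusted p = 7.45e-05) and -3.97 ± 0.59 (SE, adjusted p = 1.07e-05). FSD2, SMCO1 and NTMT2, a protein N-terminal methyltransferase, changed by -3.81, -3.82 and -3.77. SPRY3, a Sprouty inhibitor of receptor tyrosine kinase signalling, ANKRD34A and GPA33, a cell-surface antigen of the immunoglobulin family, changed by -4.25, -4.14 and -3.87.

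The smallest p-values belonged to genes whose libraries were tight at both times. TSC22D3, known as GILZ, a glucocorticoid-induced leucine zipper gene (chromosome X, 88171325 to 88233583), had 214, 192, 181 and 200.3 CPM at 4 h and 951, 1063, 702 and 1264 CPM at 24 h. The 4 h values fell inside the control range of 142 to 251 CPM, and all 24 h values were above it (log2 change 2.34 ± 0.21 (SE), adjusted p = 6.74e-09). TBC1D20, which switches off the secretory GTPase RAB1, had 21.5, 26.9, 22.5 and 19.1 CPM at 4 h and 83.6, 95.0, 82.8 and 98.2 CPM at 24 h (log2 change 2.00 ± 0.20 (SE), adjusted p = 7.16e-08). DHODH, the mitochondrial enzyme of pyrimidine synthesis, had 4.80, 4.59, 4.15 and 4.39 CPM at 4 h and 17.0, 21.2, 15.9 and 23.4 CPM at 24 h (log2 change 2.11 ± 0.22 (SE), adjusted p = 7.16e-08). None of the 3 genes overlapped between the times. TMEM192, a lysosomal membrane protein gene, rose by 1.89 and ABCA3, a lipid transporter gene, by 2.31. STAMBPL1, a deubiquitinase gene, fell from 4.56 to 6.01 CPM at 4 h to 0.396 to 1.06 CPM at 24 h (log2 change -2.87 ± 0.31 (SE), adjusted p = 2.26e-07).

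**Figure D2:**
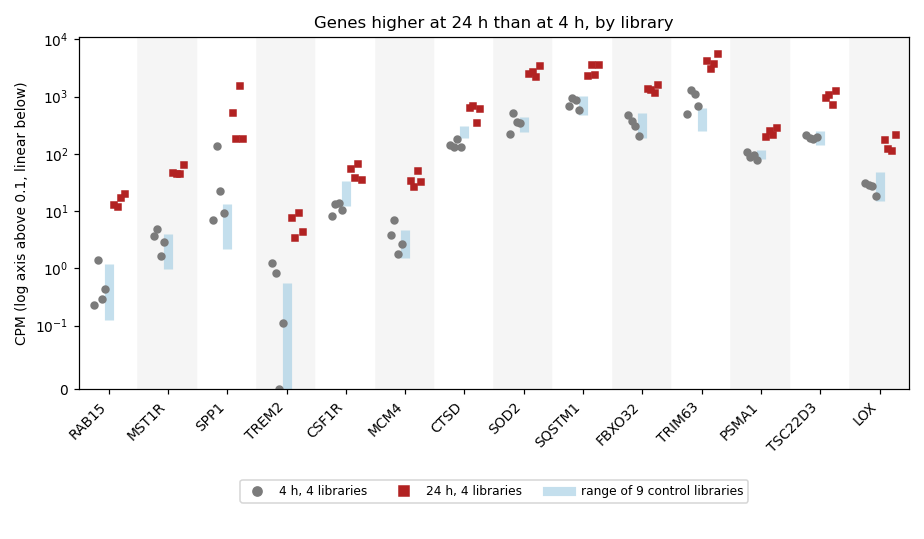
CPM (log axis above 0.1, linear below) of 14 genes higher at 24 h, with the 4 libraries of 4 h as grey circles, the 4 of 24 h as red squares and the range of the 9 controls as a blue bar. In each of the 14 genes the lowest 24 h library lies above the highest 4 h library, as for TSC22D3 with at most 214 CPM at 4 h and at least 702 CPM at 24 h.

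Macrophage and phagocyte transcripts were higher at 24 h. Of 23 tested macrophage and monocyte markers, 20 rose and none fell, with a median log2 change of 1.80 (2.47 under scaling by column totals) beside 0.01 over all genes. CSF1R, the receptor for the macrophage growth factor CSF1, had 8.35, 13.2, 13.7 and 10.6 CPM at 4 h and 53.6, 37.4, 67.0 and 35.1 CPM at 24 h. The 4 h libraries lay near or below the control minimum of 12.5 CPM, and the 24 h libraries were higher than all 9 controls (log2 change 2.06 ± 0.52 (SE), adjusted p = 0.00262). MSR1, a scavenger receptor, had 3.09, 7.44, 6.96 and 3.40 CPM at 4 h and 24.4, 12.5, 56.8 and 14.4 CPM at 24 h. CD14, the co-receptor for bacterial lipopolysaccharide, had 5.03, 10.9, 11.9 and 3.07 CPM at 4 h and 57.9, 34.7, 21.3 and 32.4 CPM at 24 h. Both rose without overlap (log2 changes 2.35 ± 0.62 (SE, adjusted p = 0.00387) and 2.22 ± 0.59 (SE, adjusted p = 0.00401)), with MSR1 highest and CD14 lowest in replicate 3 among the 24 h libraries. MARCO, another scavenger receptor, had no counts in 2 of the 4 h libraries and 3.01 to 5.36 CPM at 24 h, and LYZ, which encodes lysozyme, lay from 0.439 to 3.47 CPM at 4 h and from 6.93 to 24.0 CPM at 24 h.

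The summed CPM of the macrophage and monocyte markers was 192 to 266 CPM at 4 h and 501 to 1199 CPM at 24 h, the highest being replicate 3 of 24 h. Without that library 12 of the 23 markers were called higher, and without the 8 libraries low in NDUFAF8, which include it, the median was 1.42. In bulk tissue, a larger number of cells of a type and more RNA per cell cannot be told apart. Among 17 lipid-handling phagocyte genes, 10 rose and 2 fell (median 1.17), with 0 lower without 4 h replicate 4. Their median was 0.83 without the 8 libraries low in NDUFAF8. CTSD, the aspartic protease of lysosomes, had 145, 132, 181 and 131 CPM at 4 h and 633, 684, 346 and 598 CPM at 24 h (log2 change 1.94 ± 0.27 (SE), adjusted p = 3.91e-06). GPNMB, a glycoprotein of lipid-laden macrophages, lay from 7.60 to 17.3 CPM at 4 h and from 35.4 to 120.4 CPM at 24 h (log2 change 2.26 ± 0.56 (SE), adjusted p = 0.00208).

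Neutrophil markers were less clearly placed. Of 9 tested, 3 rose and none fell (median 2.03), and their summed CPM was 12.7, 26.2, 25.1 and 6.47 at 4 h and 75.9, 27.6, 143 and 36.3 at 24 h. ITGAM, the integrin chain CD11b of both neutrophils and macrophages, lay from 3.51 to 7.54 CPM at 4 h and from 8.03 to 50.5 CPM at 24 h (log2 change 1.96 ± 0.65 (SE), adjusted p = 0.0172). The call of ITGAM was lost without 24 h replicate 3 (adjusted p = 0.146) or 4 h replicate 4 (0.0533). Within the libraries of large total, 2 of 24 h against 1 of 4 h, the median of the neutrophil markers was 0.00. The number called higher was 0 without 24 h replicate 3 and 5 without 24 h replicate 2. Without the 8 libraries low in NDUFAF8 the median was 1.04. S100A8, MMP9 and TREM1 were each at 0 in 1 library at 4 h.

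Other marker lists of blood and resident cells moved little or had few members, while class II antigen presentation genes were higher at 24 h. Of 3 lymphocyte markers, NKG7, a granule gene of cytotoxic cells, rose (from 1.29 to 4.34 CPM at 4 h and from 7.67 to 21.5 CPM at 24 h) and JCHAIN, the joining chain of secreted antibodies, fell (from 3.29 to 19.1 CPM at 4 h and from 2.36 to 4.34 CPM at 24 h, adjusted p = 0.0096, or 0.193 without 4 h replicate 1). Of 9 class II antigen presentation genes 5 rose and none fell, beside 20.0% and 19.7% of all genes. Their median was 0.81, or 1.43 under scaling by column totals. Summed CPM of these genes was 305 to 337 at 4 h and 484 to 838 at 24 h. Among them LGMN, a lysosomal protease, lay from 54.5 to 65.4 CPM at 4 h and from 112 to 256 CPM at 24 h. IFI30, a lysosomal thiol reductase, lay from 12.1 to 28.5 CPM at 4 h and from 49.2 to 75.6 CPM at 24 h. Mast cell markers and erythrocyte and platelet markers each gave 1 lower call among 3 genes, Schwann cell markers 1 lower among 9, and keratinocyte markers 1 higher and 1 lower among 5. These counts moved by 1 or 2 genes at most when 1 library was left out. Summed CPM of these 4 lists overlapped between the times.

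Lysosome genes rose with the phagocyte markers. Of 35 tested, 22 were higher and 1 was lower (median 0.68, or 1.32 under scaling by column totals). Without the 3 large libraries 19 were higher, and without the 8 low in NDUFAF8 the median was 0.77. Their summed CPM was 2644, 2628, 2554 and 2489 at 4 h and 4635, 4209.7, 5079 and 4029.7 at 24 h, with no overlap. LIPA, the acid lipase that frees cholesterol, had 28.4, 29.3, 18.9 and 19.7 CPM at 4 h and 127, 76.5, 200.2 and 88.9 CPM at 24 h (log2 change 2.36 ± 0.43 (SE), adjusted p = 0.000124). ATP6V1A, the catalytic subunit of the proton pump that acidifies lysosomes, had 23.4, 20.2, 12.5 and 25.7 CPM at 4 h and 60.1, 58.6, 93.1 and 60.0 CPM at 24 h (log2 change 1.74 ± 0.29 (SE), adjusted p = 5.05e-05). Replicate 3 of 24 h was the highest library for both genes, as for the macrophage sum, but the lowest of the 24 h libraries for CTSD. The part of the phagocyte markers in the lysosome rise was not tested, though LIPA and CTSD stand in both lists.

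**Figure D3:**
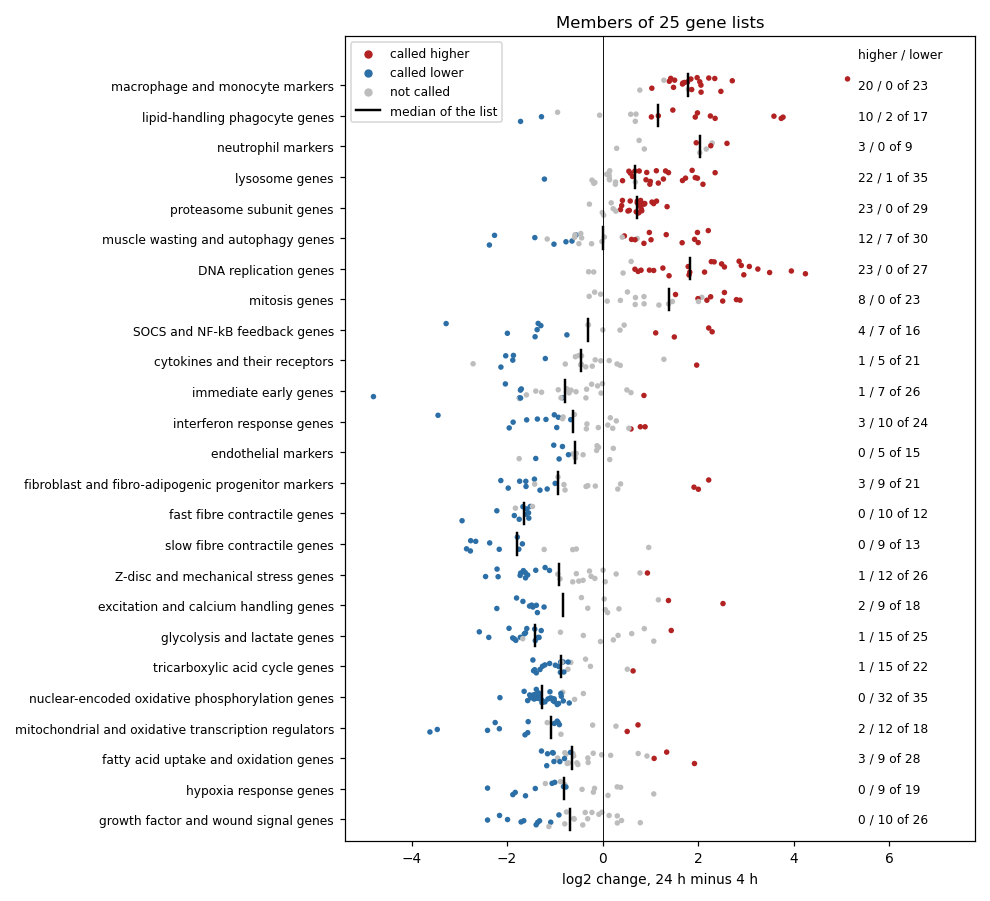
Log2 change, 24 h minus 4 h, of each member of 25 gene lists (1 point per gene, coloured if called), with the list median as a bar and the numbers called higher and lower of those tested at the right. Proteasome, lysosome, replication and macrophage lists lie to the right and contractile and energy metabolism lists to the left. The medians of the cytokine, NF-kB feedback and endothelial lists turn positive under scaling by column totals, and that of the interferon list goes to 0.00.

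Genes of protein breakdown in muscle were mixed, and the 5 of smallest p among them rose. TRIM63, the muscle ubiquitin ligase MuRF1 that targets myosin (chromosome 6, 83493200 to 83507471), had 493, 1293, 1097 and 681 CPM at 4 h and 4180.0, 2994, 3774 and 5574 CPM at 24 h. Controls held 252 to 623 CPM, so the 4 h libraries overlapped or passed the control range and the 24 h libraries were several times above it (log2 change 2.21 ± 0.40 (SE), adjusted p = 0.000106). FBXO32, the muscle ubiquitin ligase atrogin-1, had 475, 373, 306 and 205 CPM at 4 h and 1372, 1294, 1172 and 1605 CPM at 24 h (log2 change 2.00 ± 0.34 (SE), adjusted p = 5.37e-05). SQSTM1, the p62 adaptor that brings ubiquitin-tagged protein to autophagosomes (chromosome 2, 78752768 to 78763998), had 697, 963, 885 and 574 CPM at 4 h and 2331, 3510.3, 2373 and 3633 CPM at 24 h (log2 change 1.93 ± 0.27 (SE), adjusted p = 6.33e-06). FBXO30, a further ligase of the atrophy programme, and UBB, a ubiquitin gene, lay from 135 to 197 CPM at 4 h and from 344 to 465 CPM at 24 h and from 596 to 1368 CPM at 4 h and from 2468 to 4355 CPM at 24 h. All 5 genes rose without overlap between the times, but a choice by smallest p favours such genes. Among all 30 genes of the list, 8 were separate upward and 7 downward, beside 1613 and 1692 of all 9411 genes. The list of 30 muscle wasting and autophagy genes was mixed, with 12 higher and 7 lower (median 0.01, or 0.65 under scaling by column totals), and without 24 h replicate 3 only 3 were lower.

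Proteasome subunits moved in the same direction by smaller amounts. Of 29 tested, 23 rose and none fell, with a median of 0.73 (1.35 under scaling by column totals) and 20 higher with the library sets as a term. PSMA1, a subunit of the outer ring of the core particle, had 109, 87.7, 95.3 and 77.1 CPM at 4 h and 201, 252, 211 and 278 CPM at 24 h (log2 change 1.35 ± 0.21 (SE), adjusted p = 1.7e-05). PSMA4, of the same ring, had 86.9, 100.1, 105 and 98.7 CPM at 4 h and 197, 238, 178 and 242 CPM at 24 h (log2 change 1.13 ± 0.17 (SE), adjusted p = 1.57e-05). PSMA5 lay from 73.3 to 99.7 CPM at 4 h and from 154 to 204 CPM at 24 h. The lowest 24 h library was above the highest 4 h library for 21 of the 29 genes, beside 1613 of all 9411 genes. Summed over the list, CPM was 4159 to 4635 CPM at 4 h and 5567 to 7162 CPM at 24 h. Without the 3 large libraries 11 were called higher, and without the 8 low in NDUFAF8 the median was 0.74.

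DNA replication genes rose from control-like levels. Of 27 tested, 23 were higher and none lower (median 1.82, or 2.45 under scaling by column totals). MCM4, a helicase subunit (chromosome 4, 79674737 to 79686964), had 3.77, 6.93, 1.81 and 2.63 CPM at 4 h and 34.0, 26.1, 49.7 and 32.9 CPM at 24 h (log2 change 3.25 ± 0.49 (SE), adjusted p = 1.44e-05). MCM3, of the same ring, had 2.63, 6.01, 2.51 and 2.30 CPM at 4 h and 24.0, 19.8, 37.3 and 23.3 CPM at 24 h (log2 change 2.96 ± 0.48 (SE), adjusted p = 3.76e-05). For both, the 4 h libraries lay within or near the control range, which was 1.54 to 4.71 CPM for MCM4, and the 24 h libraries were far above it. CHAF1A, which loads histones on new DNA, lay from 1.58 to 3.89 CPM at 4 h and from 9.94 to 16.9 CPM at 24 h (log2 change 2.13 ± 0.36 (SE), adjusted p = 5.51e-05). Summed CPM of the list was 216, 244, 293 and 183 at 4 h and 520.3, 418, 624 and 477 at 24 h, so replicate 3 of 24 h was again the highest, and the part of the phagocytes in this order was not tested.

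Mitosis genes gave fewer calls. Of 23 tested, 8 rose and none fell, at a median of 1.38 (2.03 under scaling by column totals). MELK, a kinase of dividing cells, lay from 0.219 to 0.572 CPM at 4 h and from 1.66 to 4.15 CPM at 24 h. TOP2A, which untangles DNA before division, lay from 0.935 to 4.08 CPM at 4 h and from 7.60 to 17.4 CPM at 24 h (log2 change 2.26 ± 0.69 (SE), adjusted p = 0.0107). The number higher was 5 without 4 h replicate 1, 2 without 4 h replicate 3, 4 without 4 h replicate 4 and 2 without the 3 large libraries. Without the 8 low in NDUFAF8 the median was 2.09. Most of these genes were at a few CPM, where counting error is large.

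Contractile genes of both fibre types were lower at 24 h. Of 12 fast fibre genes tested, 10 fell and none rose (median -1.64, or -1.02 under scaling by column totals), and of 13 slow fibre genes 9 fell and none rose (median -1.78, or -1.15). ATP2A2, the calcium pump of slow fibres (chromosome 14, 31674659 to 31744981), had 2263, 2219, 3583 and 3355 CPM at 4 h and 555, 399, 419 and 311 CPM at 24 h. The controls held 1715 to 10267 CPM, above all 24 h libraries (log2 change -2.76 ± 0.55 (SE), adjusted p = 0.000289). MYBPC1, the slow myosin-binding protein C, had 1847, 2179, 4609.8 and 4361 CPM at 4 h and 593, 499, 392 and 423 CPM at 24 h (log2 change -2.77 ± 0.59 (SE), adjusted p = 0.000577). MYH7 had 3458, 7245, 9569.6 and 10067 CPM at 4 h and 1466, 1025, 1060.2 and 660.5 CPM at 24 h (log2 change -2.85 ± 0.74 (SE), adjusted p = 0.00328). In all 3 genes replicates 3 and 4 were the highest libraries at 4 h, and the times did not overlap. With the library sets as a term, 5 of the slow fibre genes were lower, with 2 without the 3 large libraries. Without the 8 low in NDUFAF8 the median of the slow fibre genes was -2.20.

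Among fast fibre genes, ATP2A1, the calcium pump of fast fibres, had 3764, 8032, 6878 and 11509.7 CPM at 4 h and 2064, 1758, 1118 and 1564 CPM at 24 h (log2 change -2.21 ± 0.56 (SE), adjusted p = 0.00262). MYLK2, the kinase of the myosin light chain in skeletal muscle, had 904, 762, 766 and 886 CPM at 4 h and 214, 100.1, 37.2 and 80.5 CPM at 24 h (log2 change -2.94 ± 0.61 (SE), adjusted p = 0.000451). CASQ1, the calcium buffer of the sarcoplasmic reticulum, lay from 3116 to 4907 CPM at 4 h and from 845 to 1574 CPM at 24 h. TNNI2, the fast inhibitory troponin, lay from 8143 to 14806 CPM at 4 h and from 2368 to 3990.0 CPM at 24 h. Replicate 3 of 24 h was the lowest of all libraries in these 4 genes. All 12 fast fibre genes tested were lower without overlap, including the 2 not called, beside 1692 of all 9411 genes. Without the 3 large libraries 6 were called lower, and without the 8 low in NDUFAF8 the median was -1.30. Against the controls the median log2 change of the list was 0.97 at 4 h and -0.60 at 24 h. That of the slow fibre list was -1.31 and -3.01. Summed CPM of the fast list was 115160 to 149604 at 4 h and 27645 to 49721 at 24 h. The controls ran from 20330 to 143800 CPM, with a median of 39550.

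The Z-disc list held 12 lower genes and 1 higher gene of 26 (median -0.92, or -0.27 under scaling by column totals). LDB3, a scaffold of the Z-disc, had 2331, 2189, 2382 and 3052 CPM at 4 h and 521, 504, 325 and 471 CPM at 24 h (log2 change -2.45 ± 0.37 (SE), adjusted p = 1.34e-05). NEB had 11258, 13709, 13214 and 16916 CPM at 4 h and 3782, 3666, 4946 and 4383 CPM at 24 h (log2 change -1.72 ± 0.34 (SE), adjusted p = 0.000292). MYOT, the actin-bundling protein myotilin, lay from 1164 to 2685 CPM at 4 h and from 324 to 561 CPM at 24 h. Each of the 3 was separate between the times. Of 18 genes of excitation and calcium handling 9 fell and 2 rose (median -0.83, or -0.22). Under scaling by column totals 6 were higher and 7 lower, and without 4 h replicate 3 none was higher. Without the 8 libraries low in NDUFAF8 the median was -0.92. STAC3, which couples the voltage sensor to calcium release, lay from 439 to 828 CPM at 4 h and from 132 to 301 CPM at 24 h, JPH1, which joins the membranes of the triad, from 322 to 495 CPM at 4 h and from 115 to 192 CPM at 24 h and TRDN, which anchors calsequestrin, from 451 to 1033 CPM at 4 h and from 153 to 223 CPM at 24 h.

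Myogenic genes did not move as a group, with 3 higher and 6 lower of 22 (median -0.01, or 0.63 under scaling by column totals). MYOG, the transcription factor myogenin, had 90.7, 46.9, 41.5 and 60.1 CPM at 4 h and 115, 173, 122 and 138 CPM at 24 h (log2 change 1.20 ± 0.31 (SE), adjusted p = 0.00321). Embryonic and perinatal myosins went the other way: MYH3 had 119, 40.1, 32.0 and 54.9 CPM at 4 h and 14.7, 16.6, 19.0 and 14.6 CPM at 24 h (log2 change -1.92 ± 0.49 (SE), adjusted p = 0.00281). MYH8 had 207, 248, 515 and 259 CPM at 4 h and 39.9, 63.9, 36.5 and 71.9 CPM at 24 h (log2 change -2.53 ± 0.80 (SE), adjusted p = 0.0128). For MYH8 the 24 h values lay inside the control range of 5.75 to 237 CPM, and for MYH3 inside 7.28 to 65.7 CPM. SPRY1, a Sprouty inhibitor needed by quiescent satellite cells, lay from 52.5 to 108 CPM at 4 h and from 25.0 to 62.5 CPM at 24 h (log2 change -1.20 ± 0.24 (SE), adjusted p = 0.000338), with overlap.

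Energy metabolism genes were lower at 24 h to unequal degrees. Of 35 nuclear-encoded oxidative phosphorylation genes tested, 32 were lower and none higher, with a median of -1.26. With the library sets as a term all 35 were lower, and under scaling by column totals 18 were (median -0.63). COX7A1, the muscle isoform of a cytochrome oxidase subunit (chromosome 6, 45519225 to 45520721), had 483, 351, 404 and 477 CPM at 4 h and 105, 116, 68.2 and 97.4 CPM at 24 h (log2 change -2.15 ± 0.44 (SE), adjusted p = 0.000379). NDUFS4, a complex I subunit, had 253, 187, 196 and 215 CPM at 4 h and 68.4, 87.0, 61.3 and 78.9 CPM at 24 h (log2 change -1.53 ± 0.27 (SE), adjusted p = 8.4e-05). NDUFS3, of the same complex, lay from 95.8 to 159 CPM at 4 h and from 32.5 to 50.0 CPM at 24 h. SDHD, a membrane anchor of complex II, lay from 138 to 204 CPM at 4 h and from 57.2 to 85.0 CPM at 24 h (log2 change -1.26 ± 0.24 (SE), adjusted p = 0.000213). The summed CPM of the list was 9763 to 14399.7 CPM at 4 h and 3723 to 5707 CPM at 24 h, lowest in replicate 3 of 24 h.

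Enzymes of the tricarboxylic acid cycle gave 15 lower and 1 higher of 22 (median -0.88, or -0.25 under scaling by column totals). DLAT, a core subunit of pyruvate dehydrogenase, had 129, 154, 186 and 195 CPM at 4 h and 72.2, 74.3, 53.2 and 68.3 CPM at 24 h (log2 change -1.31 ± 0.25 (SE), adjusted p = 0.000187). SUCLA2, of succinyl-CoA synthetase, had 421, 503, 569 and 626 CPM at 4 h and 206, 198, 149 and 218 CPM at 24 h (log2 change -1.46 ± 0.28 (SE), adjusted p = 0.000196). DLD, shared by several dehydrogenases, lay from 392 to 529 CPM at 4 h and from 182 to 244 CPM at 24 h. These genes were separate between the times. Of 28 genes of fatty acid use 9 fell and 3 rose (median -0.65, or -0.02). In this list 4 were lower with the library sets as a term and 2 without the 3 large libraries. Scaling by column totals gave 6 higher and 0 lower, and the median was -0.75 without the 8 low in NDUFAF8. ETFA, which passes electrons from fatty acid oxidation, lay from 185 to 264 CPM at 4 h and from 114 to 137 CPM at 24 h. DECR1, for unsaturated fatty acids, lay from 70.6 to 112 CPM at 4 h and from 41.2 to 50.8 CPM at 24 h. CPT1A, the liver-type carrier of fatty acids into mitochondria that non-muscle cells use, moved the other way, with 19.4, 14.0, 7.60 and 14.9 CPM at 4 h and 59.6, 45.3, 61.6 and 44.7 CPM at 24 h (log2 change 1.92 ± 0.43 (SE), adjusted p = 0.000841).

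Glycolysis and glycogen genes were lower too. Of 25 tested, 15 fell and 1 rose (median -1.41, or -0.77 under scaling by column totals). Against the controls the median log2 change of the list was 0.87 at 4 h and -0.51 at 24 h. SLC2A4, the insulin-responsive glucose transporter GLUT4, had 481, 178, 241 and 259 CPM at 4 h and 89.3, 73.8, 20.7 and 38.5 CPM at 24 h (log2 change -2.38 ± 0.53 (SE), adjusted p = 0.000896). PHKG1, the muscle catalytic subunit of phosphorylase kinase, lay from 175 to 235 CPM at 4 h and from 21.4 to 87.9 CPM at 24 h (log2 change -1.96 ± 0.46 (SE), adjusted p = 0.00146). SLC2A4 and PHKG1 were lowest in replicate 3 of 24 h. Without that library 9 genes of the list were called lower, and without the 3 large libraries 6. The median was -1.18 without the 8 low in NDUFAF8.

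Transcripts made inside mitochondria did not follow the nuclear ones so evenly. Of 12 mitochondrially encoded genes, 2 fell and 1 rose (median -0.51, or 0.13 under scaling by column totals). None fell with the library sets as a term, under scaling by column totals or without the 3 large libraries. The same held without replicate 1 or 3 of 4 h or replicate 1, 2 or 3 of 24 h. Without the 8 low in NDUFAF8 the median was -0.88. COX1, a catalytic subunit of cytochrome oxidase, had 67984, 36290.5, 64097 and 44043 CPM at 4 h and 31726, 26718, 24724 and 32046 CPM at 24 h (log2 change -0.88 ± 0.35 (SE), adjusted p = 0.0425). Its call was lost on leaving out any library other than replicate 2 or 4 of 4 h, with adjusted p-values of 0.0607 to 0.111. ND6 had 5.03, 6.22, 22.2 and 4.28 CPM at 4 h and 71.1, 103, 49.7 and 119 CPM at 24 h (log2 change 3.15 ± 0.74 (SE), adjusted p = 0.00138), but it helped define the library sets, and the strand setting of the counting is not given, so reads of ND6 and of the gene opposite it cannot be told apart. The share of raw counts from these genes was 10.4 ± 3.14% at 4 h and 9.83 ± 1.07% at 24 h (SD, n = 4 each), a difference of -0.56 percentage points (two-sided exact permutation p = 0.743, the smallest possible being 0.0286). On the TMM scale the share was 12.8 ± 4.25% at 4 h and 7.77 ± 1.27% at 24 h, a difference of -5.00 percentage points (exact permutation p = 0.0571). The sign of the difference in raw counts turned when replicate 1 (0.45) or 3 (0.229) of 4 h was left out.

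Regulators of oxidative metabolism were lower as well. Of 18 tested, 12 fell and 2 rose (median -1.08, or -0.46 under scaling by column totals). The number lower was 7 without 4 h replicate 4 and 4 without the 3 large libraries. Without the 8 low in NDUFAF8 the median was -1.11. PERM1, a muscle cofactor induced by PGC-1 proteins, had 51.1, 59.9, 63.7 and 85.1 CPM at 4 h and 9.84, 4.58, 2.79 and 4.14 CPM at 24 h (log2 change -3.62 ± 0.59 (SE), adjusted p = 3.79e-05). RXRG, a retinoid X receptor of muscle, had 68.7, 80.0, 40.5 and 80.9 CPM at 4 h and 9.41, 7.04, 2.79 and 5.22 CPM at 24 h (log2 change -3.46 ± 0.50 (SE), adjusted p = 8.91e-06). PPARGC1A, the coactivator PGC-1alpha, had 20.2, 32.8, 64.4 and 49.0 CPM at 4 h and 13.0, 7.00, 6.86 and 10.5 CPM at 24 h (log2 change -2.16 ± 0.50 (SE), adjusted p = 0.00123). Values of all 3 genes were separate, and PERM1 at 24 h lay far under its control range of 55.2 to 166 CPM. TFB2M, a mitochondrial transcription factor, lay from 11.0 to 23.7 CPM at 4 h and from 8.39 to 10.8 CPM at 24 h (log2 change -1.01 ± 0.20 (SE), adjusted p = 0.000334).

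VEGFA, the growth factor of blood vessels (chromosome 7, 38746393 to 38762282), had 188, 261, 351 and 216 CPM at 4 h and 44.9, 47.1, 61.3 and 38.2 CPM at 24 h. Every 24 h library lay below the control range of 181 to 607 CPM (log2 change -2.41 ± 0.45 (SE), adjusted p = 0.000161). EGLN3, a prolyl hydroxylase induced by low oxygen, had 46.4, 94.8, 113 and 70.7 CPM at 4 h and 13.8, 28.6, 26.7 and 19.2 CPM at 24 h (log2 change -1.88 ± 0.32 (SE), adjusted p = 5.43e-05). PFKFB4, a glycolytic regulator, lay from 24.8 to 43.4 CPM at 4 h and from 12.0 to 14.2 CPM at 24 h. Of 19 hypoxia response genes 9 fell and none rose (median -0.82, or -0.17 under scaling by column totals). Their median log2 change against the controls was 0.44 at 4 h and -0.47 at 24 h. Growth factor and wound signal genes gave 10 lower and none higher of 26 (median -0.68, or -0.03), with 6 lower without 24 h replicate 4. PDGFB, a mitogen for pericytes, had 79.0, 76.0, 71.3 and 83.9 CPM at 4 h and 37.3, 34.4, 24.2 and 25.1 CPM at 24 h (log2 change -1.36 ± 0.20 (SE), adjusted p = 7.86e-06). FST, the activin antagonist follistatin, lay from 5.91 to 28.0 CPM at 4 h and from 1.57 to 4.84 CPM at 24 h. BMP2, a bone morphogenetic protein, lay from 2.63 to 8.13 CPM at 4 h and from 1.23 to 2.43 CPM at 24 h.

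**Figure D4:**
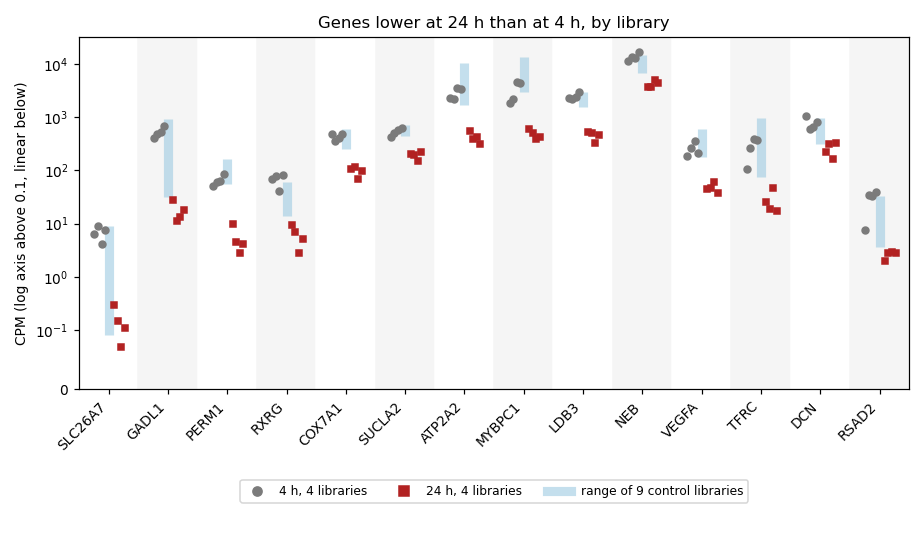
CPM (log axis above 0.1, linear below) of 14 genes lower at 24 h, with the 4 libraries of 4 h as grey circles, the 4 of 24 h as red squares and the range of the 9 controls as a blue bar. In each of the 14 genes the highest 24 h library lies below the lowest 4 h library, as for VEGFA with at least 188 CPM at 4 h and at most 61.3 CPM at 24 h.

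Early inflammatory transcripts were uneven among the 4 h libraries. IL6, the interleukin 6 gene, had 4.00, 67.1, 81.6 and 16.1 CPM at 4 h and 3.04, 5.28, 25.2 and 5.58 CPM at 24 h, with replicates 2 and 3 high at 4 h and replicate 3 high at 24 h. It was called lower (log2 change -2.13 ± 0.78 (SE), adjusted p = 0.0295) but overlapped, and the call was lost without replicate 2 (0.0771) or 3 (0.119) of 4 h or replicate 1 (0.0875), 2 (0.0777) or 4 (0.0800) of 24 h. OSMR, the receptor for oncostatin M, had 16.7, 121, 107 and 41.1 CPM at 4 h and 22.6, 10.8, 23.2 and 13.8 CPM at 24 h, again with replicates 2 and 3 high (log2 change -2.03 ± 0.45 (SE), adjusted p = 0.000807). LIFR, the receptor for leukaemia inhibitory factor, had 86.1, 217, 184 and 249 CPM at 4 h and 51.0, 44.3, 63.9 and 42.8 CPM at 24 h (log2 change -1.87 ± 0.32 (SE), adjusted p = 6.09e-05). IL6ST, the signalling chain gp130 that these receptors share, had 218, 476, 554 and 308 CPM at 4 h and 159, 148, 193 and 177 CPM at 24 h (log2 change -1.20 ± 0.24 (SE), adjusted p = 0.000292). LIFR and IL6ST were separate between the times. IL10RA, the receptor chain for interleukin 10, rose from 3.07 to 6.01 CPM to 11.3 to 23.9 CPM (log2 change 1.97 ± 0.63 (SE), adjusted p = 0.0133). In all, 5 of 21 cytokine and receptor genes fell and 1 rose, beside 19.7% and 20.0% of all genes. The median was -0.44 (0.20 under scaling by column totals), with 3 lower without replicate 3 of 4 h or replicate 1, 2 or 4 of 24 h.

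The 3 chemokine ligands called, of 12, were lower, beside 19.7% of all genes lower. CXCL12, which holds progenitors and leukocytes in tissues, lay from 131 to 218 CPM at 4 h and from 45.7 to 79.2 CPM at 24 h (log2 change -1.33 ± 0.40 (SE), adjusted p = 0.00865). CCL26, the eotaxin-3 gene, lay from 4.69 to 29.2 CPM at 4 h and from 1.64 to 2.39 CPM at 24 h (log2 change -2.70 ± 0.53 (SE), adjusted p = 0.00026). CXCL2, a neutrophil attractant, had 16.7, 40.7, 104 and 24.4 CPM at 4 h and 9.41, 14.4, 18.2 and 11.1 CPM at 24 h and overlapped, and its call (log2 change -1.81 ± 0.48 (SE), adjusted p = 0.00356) was lost without 4 h replicate 3 (0.067). The median of the list was 0.38 (1.01 under scaling by column totals), and 2 were higher without 4 h replicate 1.

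Genes of NF-kB signalling split. NFKB2 and RELB, the subunits of the non-canonical NF-kB dimer, rose: NFKB2 had 9.03, 14.6, 16.8 and 10.1 CPM at 4 h and 52.3, 80.7, 44.9 and 70.8 CPM at 24 h (log2 change 2.29 ± 0.32 (SE), adjusted p = 4.13e-06). RELB had 4.92, 9.58, 7.60 and 2.74 CPM at 4 h and 24.0, 37.2, 23.4 and 32.1 CPM at 24 h (log2 change 2.22 ± 0.35 (SE), adjusted p = 2.14e-05). TNIP1, which restrains the pathway, had 72.9, 91.3, 76.1 and 65.8 CPM at 4 h and 213, 232, 208 and 214 CPM at 24 h (log2 change 1.50 ± 0.20 (SE), adjusted p = 3.17e-06). All 3 were separate, and their 4 h values lay near the control range. NFKBIA, the fast inhibitor of NF-kB, had 32.9, 104, 154 and 56.4 CPM at 4 h and 35.3, 36.5, 31.8 and 30.7 CPM at 24 h and overlapped (log2 change -1.37 ± 0.33 (SE), adjusted p = 0.00186). CISH, an inhibitor of cytokine signalling, had 42.5, 56.7, 74.6 and 10.9 CPM at 4 h and 5.72, 2.75, 6.15 and 4.68 CPM at 24 h (log2 change -3.28 ± 0.75 (SE), adjusted p = 0.00112). The list gave 4 higher and 7 lower of 16 (median -0.30, or 0.34 under scaling by column totals). The number lower was 4 without 4 h replicate 2 or 24 h replicate 1 and 2 without 4 h replicate 3 or 24 h replicate 2 or 4.

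Immediate early genes followed the same uneven 4 h libraries. Their summed CPM was 1343, 3786, 5474 and 3089 at 4 h and 2064, 2334, 2576 and 2039 at 24 h, so replicate 1 of 4 h lay below every 24 h library and the other 3 above. ARC, a synaptic activity gene that also marks stimulated muscle, had 0.343, 13.9, 35.4 and 1.97 CPM at 4 h and 0.579, 0.0733, 1.14 and 0.252 CPM at 24 h (log2 change -4.80 ± 1.11 (SE), adjusted p = 0.00123). EGR3, an early growth response factor, had 1.83, 8.05, 11.2 and 6.36 CPM at 4 h and 0.941, 2.38, 3.36 and 1.58 CPM at 24 h. NR4A1, an orphan nuclear receptor, had 98.3, 216, 396 and 294 CPM at 4 h and 73.4, 106, 69.0 and 56.6 CPM at 24 h. Both were called lower (adjusted p = 0.0128 and 0.0138) but lost the call without 4 h replicate 3 (0.0604 and 0.0533). Of 26 genes 7 fell and 1 rose (median -0.79, or -0.16 under scaling by column totals). The number lower was 11 without 4 h replicate 1, 1 without 4 h replicate 3, 3 without 24 h replicate 4 and 11 with the library sets as a term, and the median was 0.00 within the set low in NDUFAF8 and -1.74 within that of large totals.

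Interferon response genes gave more lower than higher calls. Of 24 tested, 10 fell and 3 rose, with a median of -0.63, which was 0.00 under scaling by column totals, where 8 were higher and 3 lower. The number lower was 4 without the 3 large libraries, and the number higher was 1 without replicate 1 or 4 of either time. Without the 8 low in NDUFAF8 the median was -0.66. RSAD2, the antiviral enzyme viperin, had 7.55, 34.1, 32.7 and 39.7 CPM at 4 h and 1.95, 2.75, 2.93 and 2.77 CPM at 24 h (log2 change -3.45 ± 0.64 (SE), adjusted p = 0.000143). IFI44, an interferon-induced gene, had 14.9, 20.7, 20.6 and 17.4 CPM at 4 h and 6.15, 5.02, 3.79 and 4.03 CPM at 24 h (log2 change -1.96 ± 0.28 (SE), adjusted p = 6.15e-06). USP18, which removes the ubiquitin-like ISG15, lay from 6.97 to 9.98 CPM at 4 h and from 2.93 to 3.36 CPM at 24 h. IFIH1, the RNA sensor MDA5, lay from 12.3 to 20.3 CPM at 4 h and from 5.73 to 8.79 CPM at 24 h. These 4 genes were separate between the times, and RSAD2 at 24 h was below its control range of 3.63 to 32.8 CPM.

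Some markers of connective tissue cells were lower at 24 h. Of 21 fibroblast and fibro-adipogenic progenitor markers, 9 fell and 3 rose (median -0.93, or -0.29 under scaling by column totals), with 5 lower without 4 h replicate 1. With the library sets as a term 7 were lower and 0 higher, and without the 8 libraries low in NDUFAF8 the median was -0.40. Their summed CPM was 2674 to 4704 CPM at 4 h and 1374 to 1823 CPM at 24 h. DCN, the proteoglycan decorin, had 1047, 596, 666 and 832 CPM at 4 h and 227, 314, 166 and 322 CPM at 24 h (log2 change -1.61 ± 0.35 (SE), adjusted p = 0.000755). GSN, the actin-severing protein gelsolin, had 2203, 1222, 1510.1 and 1785 CPM at 4 h and 513, 720.2, 362 and 617 CPM at 24 h (log2 change -1.60 ± 0.39 (SE), adjusted p = 0.0019). MFAP5, a microfibril protein of progenitors, lay from 28.6 to 129 CPM at 4 h and from 9.65 to 19.8 CPM at 24 h. OSR1, a transcription factor of fibro-adipogenic progenitors, lay from 13.0 to 49.2 CPM at 4 h and from 4.79 to 7.92 CPM at 24 h. All 4 were separate, and replicate 1 of 4 h was the highest for the first 3.

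Most matrix genes were not called, and those called went both ways. Collagens and matrix glycoproteins gave 3 higher and 3 lower of 29, beside 20.0% and 19.7% of all genes. Their median was -0.35, or 0.28 under scaling by column totals. COL15A1, a basement membrane collagen, lay from 263 to 405 CPM at 4 h and from 96.8 to 144 CPM at 24 h (log2 change -1.55 ± 0.38 (SE), adjusted p = 0.00207). BGN, the proteoglycan biglycan, lay from 34.0 to 59.3 CPM at 4 h and from 84.8 to 118 CPM at 24 h (log2 change 1.11 ± 0.32 (SE), adjusted p = 0.00679). TNC, tenascin C of wounds, had 12.9, 74.5, 30.0 and 16.5 CPM at 4 h and 175, 68.4, 355 and 136 CPM at 24 h (log2 change 2.45 ± 0.71 (SE), adjusted p = 0.00718), with 4 h replicate 2 above 24 h replicate 2. LOX, the enzyme that cross-links collagen, had 31.0, 28.7, 28.0 and 18.4 CPM at 4 h and 174, 124, 112 and 210.5 CPM at 24 h (log2 change 2.55 ± 0.50 (SE), adjusted p = 0.000258), all 24 h values lying above the controls at 15.1 to 48.6 CPM. PPIB and CRTAP, partners in collagen prolyl 3-hydroxylation, lay from 14.0 to 22.3 CPM at 4 h and from 34.2 to 41.4 CPM at 24 h and from 9.78 to 16.2 CPM at 4 h and from 23.7 to 27.2 CPM at 24 h. The processing enzymes gave 6 higher and 3 lower of 19, beside the same shares of all genes.

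TIMP1, an inhibitor of matrix proteases, had 50.2, 182, 178 and 29.9 CPM at 4 h and 308, 243, 405 and 363 CPM at 24 h (log2 change 1.58 ± 0.54 (SE), adjusted p = 0.0195), and its call was lost without replicate 1 (0.0646) or 4 (0.0726) of 4 h. TIMP3, of the same family, had 400.3, 476, 457 and 472 CPM at 4 h and 176, 213, 186 and 170.1 CPM at 24 h (log2 change -1.28 ± 0.28 (SE), adjusted p = 0.000632). The list of matrix proteases and inhibitors gave 2 higher and 2 lower of 20, beside 20.0% and 19.7% of all genes. There were 6 lower without 4 h replicate 1 or 24 h replicate 3.

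Most vessel markers were not called, and those called were lower. Of 15 endothelial markers 5 fell and none rose, beside 19.7% and 20.0% of all genes. Their median of -0.57 became 0.06 under scaling by column totals. Without 4 h replicate 1 there were 8 lower, and 3 without 4 h replicate 2 or 24 h replicate 4. EMCN, a sialoglycoprotein of capillaries and veins, had 42.3, 38.2, 39.3 and 44.3 CPM at 4 h and 20.3, 26.8, 21.5 and 22.9 CPM at 24 h (log2 change -0.84 ± 0.25 (SE), adjusted p = 0.00756). FLT1, a receptor for VEGFA, lay from 63.9 to 191 CPM at 4 h and from 48.2 to 64.5 CPM at 24 h (log2 change -1.40 ± 0.33 (SE), adjusted p = 0.00157). TEK, the angiopoietin receptor TIE2, lay from 48.1 to 127 CPM at 4 h and from 40.9 to 48.5 CPM at 24 h (log2 change -1.02 ± 0.30 (SE), adjusted p = 0.00768). FLT1 and TEK overlapped between the times through 4 h replicate 1. Of 16 pericyte and smooth muscle markers 4 fell and none rose (median -0.01), beside 19.7% of all genes lower, while scaling by column totals gave 5 higher and 1 lower. The number lower was 1 or 2 when any library but replicate 2 of either time was left out. CNN1, the smooth muscle protein calponin, had 89.2, 99.6, 72.5 and 90.7 CPM at 4 h and 28.4, 20.9, 19.4 and 25.5 CPM at 24 h (log2 change -1.90 ± 0.28 (SE), adjusted p = 1e-05).

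Stress and repair genes did not share 1 direction. SOD2, the manganese superoxide dismutase of mitochondria (chromosome 1, 7679352 to 7689564), had 219, 519.7, 365 and 349 CPM at 4 h and 2540.1, 2685, 2170.5 and 3466 CPM at 24 h. The 4 h libraries lay around the control range of 245 to 434 CPM and every 24 h library was far above it (log2 change 2.90 ± 0.42 (SE), adjusted p = 8.7e-06). NQO1, a quinone reductase, lay from 36.5 to 40.5 CPM at 4 h and from 13.4 to 20.9 CPM at 24 h and was lower (log2 change -1.12 ± 0.22 (SE), adjusted p = 0.000243). TFRC, the receptor for iron-loaded transferrin, had 105, 263, 384 and 371 CPM at 4 h and 25.9, 18.6, 46.4 and 17.6 CPM at 24 h (log2 change -3.38 ± 0.67 (SE), adjusted p = 0.000292). The list of oxidative stress, haem and metal genes gave 7 higher and 4 lower of 22 (median 0.44, or 1.03 under scaling by column totals).

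Of 22 heat shock and chaperone genes 3 rose and 5 fell, beside 20.0% and 19.7% of all genes. Without 24 h replicate 1, 2 rose and 3 fell. HSP90AB1, the constitutive HSP90, lay from 301 to 599 CPM at 4 h and from 848 to 1213 CPM at 24 h (log2 change 1.21 ± 0.24 (SE), adjusted p = 0.00028). DNAJB4 had 193, 583, 804 and 652 CPM at 4 h and 75.0, 107, 149 and 99.8 CPM at 24 h. DNAJB5 had 138, 222, 349 and 292 CPM at 4 h and 60.1, 64.7, 46.5 and 56.4 CPM at 24 h. Both of these HSP40 co-chaperones fell, with log2 changes of -2.37 ± 0.43 (SE, adjusted p = 0.000124) and -2.13 ± 0.37 (SE, adjusted p = 6.55e-05). The unfolded protein and amino acid response list gave 8 higher and 6 lower of 29, or 3 lower without 24 h replicate 3 or 4. CALR, the chaperone calreticulin, lay from 139 to 212 CPM at 4 h and from 347 to 449.9 CPM at 24 h (log2 change 1.22 ± 0.26 (SE), adjusted p = 0.000617). PHGDH and PSPH, the first and last enzymes of serine synthesis, lay from 6.49 to 16.5 CPM at 4 h and from 0.858 to 1.88 CPM at 24 h (log2 change -2.65 ± 0.45 (SE), adjusted p = 5.99e-05) and from 5.60 to 7.48 CPM at 4 h and from 1.29 to 2.45 CPM at 24 h (log2 change -1.82 ± 0.42 (SE), adjusted p = 0.00123).

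Of 18 genes induced by glucocorticoids 3 rose and 3 fell, beside 20.0% and 19.7% of all genes, with 1 lower without replicate 2 or 3 of 4 h. Beside TSC22D3, GLUL, which makes glutamine, lay from 814 to 1077 CPM at 4 h and from 1909.7 to 2691 CPM at 24 h (log2 change 1.20 ± 0.24 (SE), adjusted p = 0.000292). ERRFI1, an inhibitor of the EGF receptor, had 15.1, 218, 271 and 53.6 CPM at 4 h and 16.2, 12.7, 44.3 and 11.1 CPM at 24 h and overlapped (log2 change -2.73 ± 0.66 (SE), adjusted p = 0.00183). Of 17 circadian clock genes 6 fell and 1 rose (median -0.43, or 0.23 under scaling by column totals). ARNTL, the clock activator BMAL1, had 12.7, 34.4, 29.7 and 43.0 CPM at 4 h and 3.98, 2.71, 3.86 and 1.12 CPM at 24 h (log2 change -3.39 ± 0.72 (SE), adjusted p = 0.000554). HLF, a clock output factor, had 51.7, 43.5, 34.0 and 54.5 CPM at 4 h and 9.77, 12.6, 4.79 and 8.50 CPM at 24 h (log2 change -2.36 ± 0.35 (SE), adjusted p = 1.08e-05). CRY1, a clock repressor, lay from 23.8 to 47.6 CPM at 4 h and from 14.4 to 18.6 CPM at 24 h. The hour of day at which each muscle was taken is not in the labels. Of 21 p53 and cell death genes, 5 fell and 1 rose, beside 19.7% and 20.0% of all genes, with 3 lower without replicate 2 or 3 of 4 h. GADD45B, a stress sensor, had 29.8, 137, 222 and 91.3 CPM at 4 h and 10.3, 8.80, 37.9 and 8.46 CPM at 24 h (log2 change -2.89 ± 0.60 (SE), adjusted p = 0.000491), with overlap.

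Genes of translation moved by less. Of 55 mitochondrial ribosomal protein genes 17 fell and 7 rose (median -0.34, or 0.30 under scaling by column totals, where 23 were higher and 1 lower). That scaling called 4836 of all 9411 genes higher and 550 lower. Without the 8 libraries low in NDUFAF8 the median was -0.215. MRPS14, of the small subunit, lay from 25.8 to 40.9 CPM at 4 h and from 15.3 to 17.5 CPM at 24 h (log2 change -1.07 ± 0.18 (SE), adjusted p = 6.03e-05). MRPS10, of the same subunit, lay from 37.7 to 48.5 CPM at 4 h and from 59.3 to 76.5 CPM at 24 h (log2 change 0.65 ± 0.12 (SE), adjusted p = 0.000184). Aminoacyl-tRNA synthetases gave 9 higher and 5 lower of 35, or 21 and 1 under scaling by column totals. VARS1, which charges valine tRNA in the cytosol, lay from 25.3 to 42.3 CPM at 4 h and from 55.7 to 93.3 CPM at 24 h (log2 change 1.27 ± 0.22 (SE), adjusted p = 9.09e-05). NARS2, for asparagine in mitochondria, lay from 18.5 to 24.8 CPM at 4 h and from 8.65 to 11.2 CPM at 24 h (log2 change -1.20 ± 0.24 (SE), adjusted p = 0.000308). Of 43 cytosolic ribosomal protein genes 6 fell, but 0 with the library sets as a term and 0 without 4 h replicate 1, whose summed CPM over these genes was 47818, above 23452 to 28632 in the other 7 libraries. Scaling by column totals gave 14 higher and 0 lower. On the TMM scale the number lower was 10 without 4 h replicate 2 and 1 to 3 without any 1 library of 24 h. Of 28 ribosome biogenesis genes 2 rose, PES1 among them (from 40.1 to 63.9 CPM at 4 h and from 78.8 to 97.3 CPM at 24 h). The number higher was 5 without 4 h replicate 2, 4 without 4 h replicate 3 and 1 without 4 h replicate 1 or replicate 2 or 4 of 24 h. Under scaling by column totals 17 rose (median 0.82).

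Scaling by column totals also moved the calls of 12 other lists, given here as the numbers higher and lower. Their background is 4836 higher and 550 lower of all 9411 genes under that scaling. They were 4 and 8 for Z-disc genes, 3 and 3 for hypoxia genes, 2 and 4 for growth factor genes and 10 and 2 for myogenic genes. Inflammatory lists gave 3 and 2 for cytokine genes, 6 and 1 for NF-kB feedback genes and 1 and 1 for immediate early genes. The remaining ones gave 2 and 1 for endothelial genes, 3 and 2 for clock genes, 6 and 1 for p53 and cell death genes, 6 and 3 for heat shock genes and 8 and 1 for collagen and glycoprotein genes. Of these 12, the Z-disc and growth factor lists had more lower than higher calls.

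Both times can be set beside the 9 controls, which they share. SOD2, TSC22D3 and MCM4 differed from the controls by log2 changes of 0.05, -0.06 and 0.22 at 4 h and of 2.95, 2.28 and 3.47 at 24 h. TRIM63 and SPP1 differed by 1.03 and 3.06 at 4 h and by 3.24 and 6.84 at 24 h. ATP2A2, already lower than controls at 4 h, differed by -1.11 and then -3.88, and IL6 by 3.30 and 1.17. Over the whole course, in steps of 4 h from 4 h to 24 h and then 48 h, the median of TRIM63 was 439 CPM in controls and 889, 1712, 2235, 4505, 4445, 3977 and 707 CPM at the 7 times in turn. That of VEGFA was 315 CPM in controls and 239, 304, 152, 121, 76.3, 46.0 and 112 CPM at the 7 times in turn. For MST1R it was 2.17 CPM in controls and 3.26, 4.27, 4.26, 13.0, 12.1, 45.2 and 9.13 CPM at the 7 times in turn. Medians of TSC22D3, MST1R and MCM4 were highest, and of VEGFA, ATP2A2 and PERM1 lowest, at 24 h, and whether 24 h differed from the neighbouring times was not tested here.

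**Figure D5:**
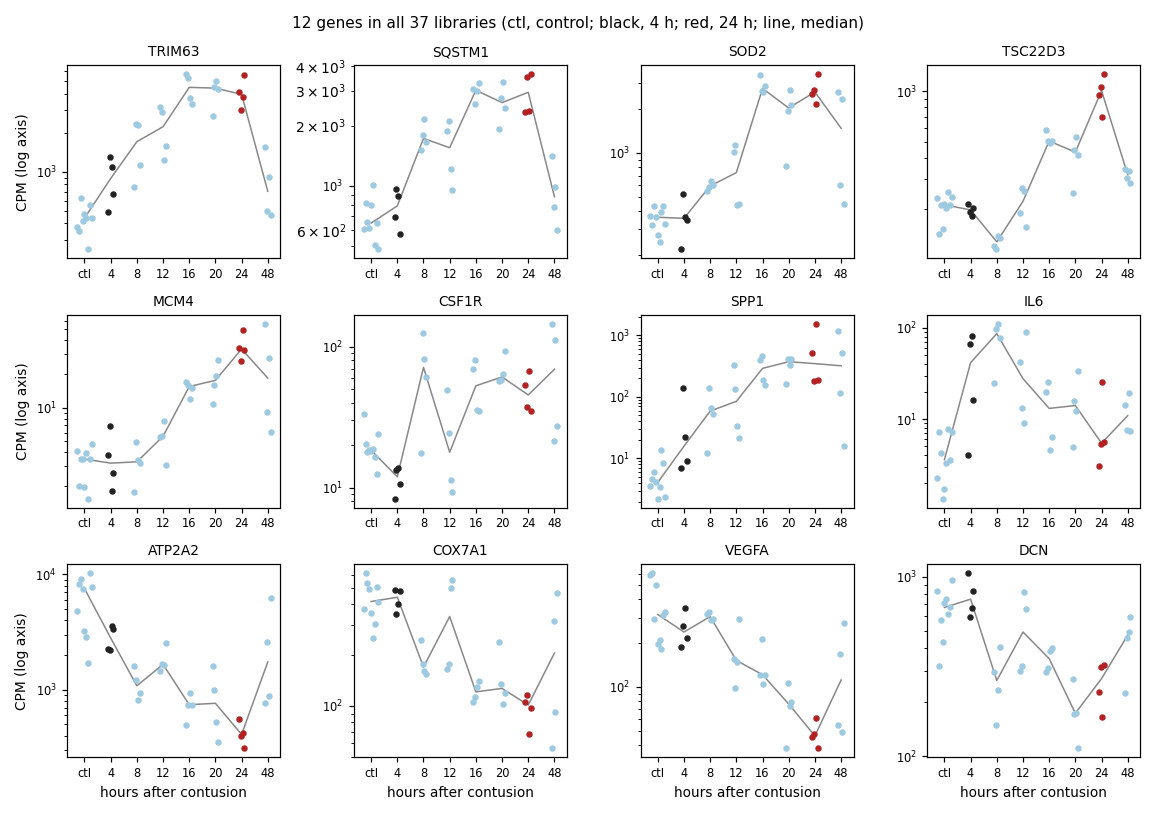
CPM (log axis) of 12 genes in all 37 libraries by hours after contusion, with 4 h in black, 24 h in red, other groups in light blue and a line through the medians. The median of TRIM63 is 4505 CPM at 16 h beside 439 CPM in controls, MCM4 and TSC22D3 have their highest median at 24 h, and the libraries of 48 h spread widely.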

How the data were processed

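Per the labels' protocols, RNA of flash-frozen muscle was extracted with Trizol and NEBNext Ultra libraries were sequenced as paired reads on a HiSeq-2500. The submitters' processing notes name FastQC, MultiQC, Trimmomatic, HISAT2 2.2.1, HTSeq and Sscrofa11.1. The annotation release and strand setting are not given in the sources used here, so a gene cannot be separated from one on the opposite strand over it. Near-identical copies, ribosomal proteins and UBB among them, are uncertain. The values are raw read counts per gene as deposited by the authors, in 9418 rows, each with a largest count of at least 101, so column totals are not the full depth. A floor of 3 counts was 0.108 to 0.343 CPM in the 8 libraries and covers counting error alone.

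Groups and columns came from the titles, with 0 columns unused. In R 4.3.3, edgeR 4.0.16 filtered low counts (filterByExpr, 9411 genes left), scaled by TMM and ran its quasi-likelihood fit, robust setting on, over all 37 libraries with group as the only factor. P-values for 24 h minus 4 h were adjusted by Benjamini-Hochberg over all genes with a threshold of 0.05. The steps were tested on simulated data. The share of mitochondrially encoded counts had an exact permutation test. No pair of libraries within a time agreed within sampling noise by a chi-square of their counts. The 5 library sets come from cutoffs of 20 M on the total, then 8 CPM of C1QBP, 4 CPM of NDUFAF8 and 32 CPM of ND6. They rest on expression values, so calls of those genes for a set would be circular.

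The comparison, the library sets, the 52 gene lists and the named genes were chosen with earlier results of these data known. Named genes were the 12 largest rises and falls without overlap and with 5 CPM or more on average at the higher time, the 6 largest each way among those also called with the library sets as a term, the 6 smallest p-values, and the 5 list members (or fewer) of smallest p. Some genes that meet this rule are not reported here. Muscle markers were named apart from this rule. Lists share members and got no test of their own. Gene spans came from a RefSeq table on Sscrofa11.1 that held 8936 of the 9411 symbols. Alternatives were other size factors and filters, DESeq2 1.42.0, limma-voom 3.58.1, fewer libraries, the library sets, a replicate block, a test against 2-fold and leaving out each library.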

Additional observations from a re-analysis of the deposited data

Results flagged for a closer look

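Among 154 genes at 2 times, in 17 groups of 4 libraries, 1 library of a named gene stood apart from the other 3 by more than Dixon's test allows, a rule that chance meets in about 1 of 20 groups. Replicate 3 of 24 h was the library in 6 of them. It was high for ATP6V1A (93.1 CPM), ERRFI1 (44.3 CPM), GADD45B (37.9 CPM), IL6 (25.2 CPM) and PES1 (97.3 CPM), and low for TNNI2 (2368 CPM). Replicate 3 of 4 h, the library of large total, was high for MYH8 (515 CPM), ND6 (22.2 CPM) and OSR1 (49.2 CPM). Replicate 1 of 4 h was high for CRTAP (16.2 CPM), EXTL1 (34.6 CPM) and STAC3 (828 CPM), and replicate 2 of 4 h for MCM3 (6.01 CPM) and SPP1 (139 CPM). At 24 h, replicate 1 was high for FLT1 (64.5 CPM) and replicate 4 for MST1R (64.6 CPM) and UBB (4355 CPM).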

How the results depend on the processing

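All 3737 calls kept their sign under other size factors, without a filter, in DESeq2, in limma-voom, with the library sets as a term, and with any 1 library left out, which gave 3086 to 3562 calls. Scaling by column totals gave 3390 of 3737 calls the same sign, with 4836 higher, 550 lower and 3082 at least 2-fold. Within the set low in NDUFAF8 (1 library against 3) there were 1603 calls, 808 higher and 795 lower, and 3661 of the 3737 calls had the same sign. Within the set of large totals (2 against 1) there were 1002, with 490 higher, 512 lower and 852 at least 2-fold, and 3727 had the same sign. In both, an arm with 1 library is assumed to vary like the other groups. Without the libraries of large total 2116 were called (1123 higher, 993 lower), and without those low in NDUFAF8 1677 (807 higher, 870 lower; 3732 of the 3737 kept their sign). These fits hold fewer libraries. A test against a 2-fold change called 282, of which 120 were higher and 162 lower.

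Libraries of the same replicate number had correlations of deviations of -0.02, -0.51, -0.29 and -0.17, and the other pairs ran from -0.23 to 0.427. The deviations also carry the library sets, so these values cannot tell whether libraries of the 2 times share a pig. The replicate block in the 28 injured libraries gave 3715 calls, and the replicate block in the 8 libraries gave 2120 (992 higher, 1128 lower). All 154 genes given with a test were called, and all kept their sign under every alternative that could give a value. Of these, 45 were called under all alternatives. This does not extend to called genes that meet the naming rule but are not reported above. GARS1 and KLF9, both called lower, had log2 changes of 0.05 and 0.01 under scaling by column totals. The mitochondrial share difference ran from -1.59 to 0.45 percentage points over libraries left out, turning positive without replicate 1 (0.45) or 3 (0.229) of 4 h (the cause was not tested), and was -5.00 (exact permutation p = 0.0571) on TMM-scaled counts.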

Other observations

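Some gene lists are not described above. Of 19 adipocyte and lipid synthesis genes 1 rose and 6 fell (median -0.33, or 0.34 under scaling by column totals), and their summed CPM was 4890.0, 3113, 3252 and 3722 at 4 h and 1646, 1796, 1177 and 1402 at 24 h, so every 24 h library lay below every 4 h library. The number lower was 3 without replicate 1 or 4 of 4 h or replicate 2 or 4 of 24 h. Complement and coagulation genes gave 2 higher and 3 lower of 18 (median -0.10), the number higher being 0 without 24 h replicate 3, with sums of 1158, 1609.5, 1450.4 and 921 at 4 h and 832, 712, 1050.0 and 630.0 at 24 h. Hyaluronan genes gave 1 higher and 1 lower of 12, and endothelial activation genes 1 higher and 1 lower of 11. For endothelial activation 4 were lower without 4 h replicate 1 or 24 h replicate 3.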
